A study of Homo sapiens with 6 samples.

Results

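Mitochondrial ribosomal proteins build the ribosome inside mitochondria, the mitoribosome. They are described here by their mRNA in 1 deposited comparison of RNA-seq data. The genes were taken as the protein-coding genes whose symbol starts with MRPL (large subunit) or MRPS (small subunit) followed by a digit, with pseudogenes left out. Of 33644 genes in the deposited table, 69 fitted, 43 of the large subunit and 26 of the small subunit. A further 9 protein-coding genes with such symbols, MRPL12, MRPL14, MRPL41, MRPL44, MRPL50, MRPL57, MRPS10, MRPS18B and MRPS26, were not analysed here.

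The labels describe 3 samples of HEK293T cells with an alt-LAMA3 knockout and 3 samples of wild-type HEK293T cells, all untreated and at day 0. HEK293T is an established line from human embryonic kidney with a viral T antigen, and alt-LAMA3 is a name built on LAMA3, the gene of a laminin chain. Both lines were grown in DMEM with fetal bovine serum and antibiotics. The labels do not say whether the knockout line is 1 clone, nor whether replicates were grown separately, so the p-values may reflect no more than technical spread. The table holds 1 finished comparison with values per gene but no values for single samples, and the header leaves both groups unnamed. Its fold changes therefore set an unnamed numerator group over an unnamed denominator group, and whether these are the labelled knockout and wild-type lines, in either order, is not known.

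The levels in the table did not follow the labelled cell line. Of 10 genes chosen as markers of HEK293-derived cells, 9 lay below a mean normalized count of 72.0 (5 CPM of the summed means) in the authors' deposited table, 3 of them at 0, and VIM alone lay above it. Of 10 T-lymphocyte markers, 9 lay above 72.0 in the authors' deposited table, CD5 being the exception. Of the 9 tested, 7 were called lower in the numerator group (adjusted p under 0.05), beside 21.6% of all tested genes above 72.0. The lowest means shared by at least 50 genes, as arise from 1 read in 1 library, took 9 separate values, 3 with positive, 3 with negative and 3 with no fold change, where 6 labelled samples would give 6. In whole-cell RNA, fewer cells of a type and less RNA per cell cannot be told apart.

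The mitoribosome translates the few proteins that mitochondrial DNA encodes, all of them subunits of the respiratory chain or of ATP synthase. Its ribosomal RNAs are transcribed in the mitochondrion, while all of its proteins are encoded in the nucleus, made in the cytosol and imported. The small subunit reads the mRNA and the large subunit joins the amino acids. Many of its proteins have bacterial counterparts, and others are found only in mitochondria. Promoters of such genes are known to be bound by NRF1, the ETS factor GABP and YY1.

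Most mitoribosomal protein genes showed no called difference between the groups, and most of those called were modestly higher in the numerator group. Of 67 genes with an adjusted p, 14 were higher, 2 were lower and 51 did not pass an adjusted p of 0.05, which is 23.9% called. Over all 13957 tested genes, 29.5% were called, 14.7% higher and 14.8% lower. The 14 higher genes are 20.9% of the 67 and the 2 lower ones 2.99%. Above a mean normalized count of 72.0, where errors are smaller, 56 mitoribosomal genes had 13 higher and 2 lower (26.8% called), against 42.6% of 8312 genes called, 21.0% higher and 21.6% lower. The lower calls were thus few beside the background, and the higher ones close to it among well-measured genes. No test over the list was made, and the table's own adjusted p-values stand for the single genes.

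**Figure D1:**
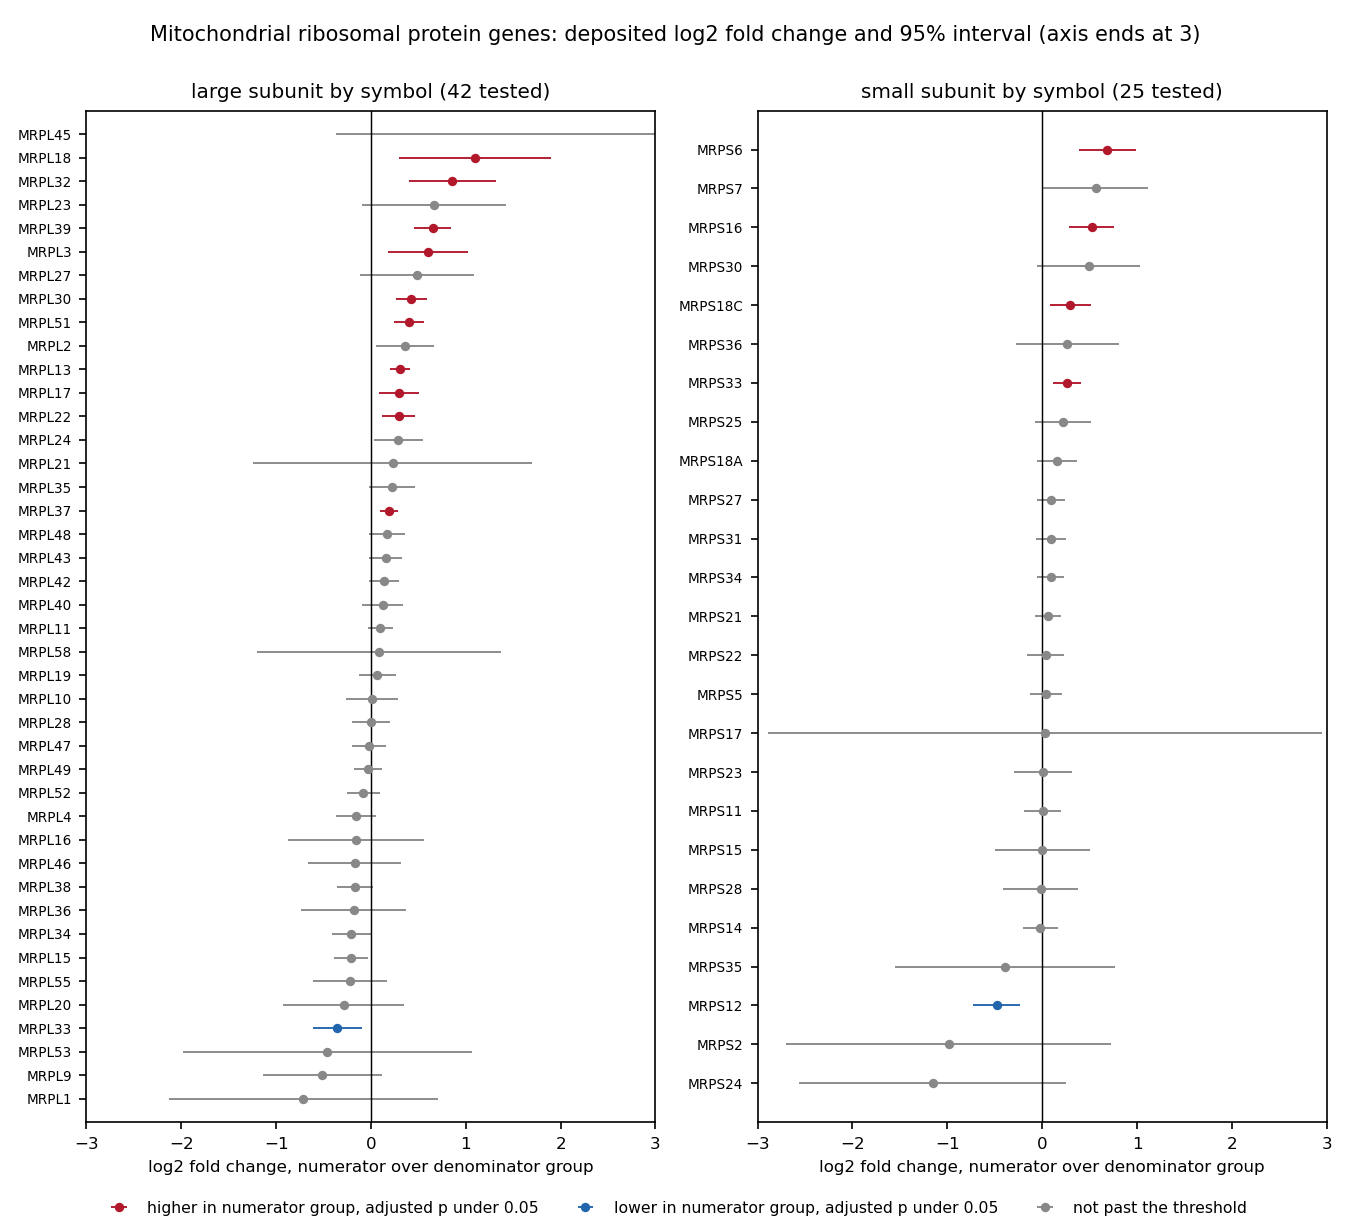
Log2 fold change (numerator over denominator group) of the 67 mitoribosomal protein genes with an adjusted p, in order of size, for the large subunit at the left and the small subunit at the right. Points are the deposited values and lines their 95% intervals; the point of MRPL45, at 5.15, lies beyond the axis, and 37 of the 67 intervals lie within 1.5-fold either way.

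The changes were small. The median log2 fold change was 0.09 over the 67 genes, with quartiles of -0.12 and 0.29, beside a median of 0.00 and quartiles of -0.37 and 0.38 over all tested genes. Only 5 of the 16 called genes changed at least 1.5-fold and only 1 at least 2-fold by its estimate. None of the 67 passed a test against a 1.5-fold change (normal test with Benjamini-Hochberg adjustment, 0 genes also at an unadjusted p of 0.05), whereas 4.68% of all tested genes did. The 95% interval lay within 1.5-fold either way for 37 of the 67 genes, and within 2-fold for 50.

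The rise with the smallest adjusted p was that of MRPL39, a large-subunit protein without a bacterial counterpart. In the authors' deposited table its mean normalized count was 1032 and its log2 fold change 0.65 (adjusted p = 3.36e-10 at an SE of 0.10). MRPL13, the counterpart of a conserved ribosomal protein, followed with a mean normalized count of 1713 and a log2 fold change of 0.31 (adjusted p = 1.72e-07 at an SE of 0.05) in the authors' deposited table. MRPL30, also conserved, had a mean normalized count of 900 and a log2 fold change of 0.43 (adjusted p = 1.41e-06 at an SE of 0.08) in the authors' deposited table. MRPL51, found only in mitochondria, had a mean normalized count of 1148 and a log2 fold change of 0.40 (adjusted p = 5.88e-06 at an SE of 0.08) in the authors' deposited table. These 4 genes are among the better measured, and none of the 4 estimates reached 2-fold.

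The 2 largest rises by estimate among called genes, those of MRPL18 and MRPL32, had larger standard errors than these 4 genes. MRPL18, the counterpart of a bacterial protein of the central protuberance, had a log2 fold change of 1.10 (adjusted p = 0.0281 at an SE of 0.41) at a mean normalized count of only 53.2 in the authors' deposited table. MRPL32, whose precursor is cut by the m-AAA protease before it joins the ribosome, had a log2 fold change of 0.86 (adjusted p = 0.00138 at an SE of 0.23) in the authors' deposited table. MRPL3, below MRPL39 and MRPS6 in size, was at a log2 fold change of 0.60 (adjusted p = 0.0218 at an SE of 0.22) in the authors' deposited table. Smaller rises were those of MRPL17 at 0.29 (SE 0.11) and of MRPL22, which lines the exit tunnel for the new protein, at 0.29 (SE 0.09), both on the log2 scale in the authors' deposited table. A list of exit-tunnel proteins, written from general knowledge and possibly incomplete, had 5 tested genes. Of these, MRPL22 and MRPL39 were called and MRPL23, MRPL24 and MRPL45 were not. That count is too small to set beside the 29.5% of all tested genes. MRPL37 had the highest level per kilobase of merged exons in the large subunit. Its log2 fold change of 0.19 (adjusted p = 0.000773 at an SE of 0.05) in the authors' deposited table was the smallest change called.

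In the small subunit the rise with the smallest adjusted p was that of MRPS6, with a mean normalized count of 455 and a log2 fold change of 0.69 (adjusted p = 4.16e-05 at an SE of 0.15) in the authors' deposited table. MRPS16 had a mean normalized count of 359 and a log2 fold change of 0.52 (adjusted p = 0.000113 at an SE of 0.12) in the authors' deposited table. Both are counterparts of bacterial proteins of the small subunit. MRPS18C was at a log2 fold change of 0.30 (adjusted p = 0.0265 at an SE of 0.11) and MRPS33, found only in mitochondria, at 0.26 (adjusted p = 0.00213 at an SE of 0.07) in the authors' deposited table.

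One gene of each subunit was lower in the numerator group. MRPS12, the counterpart of the bacterial protein at the decoding centre, had a mean normalized count of 395 and a log2 fold change of -0.48 (adjusted p = 0.000670 at an SE of 0.12) in the authors' deposited table. MRPL33 had a mean normalized count of 284 and a log2 fold change of -0.35 (adjusted p = 0.0299 at an SE of 0.13) in the authors' deposited table. MRPL33 was also the called gene nearest to the threshold, next to MRPL18 and MRPS18C. Just outside it, MRPL2 had an adjusted p of 0.0701, MRPL15 of 0.0736 and MRPL24 of 0.0887 in the authors' deposited table.

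Several called genes overlap other annotated genes, and the labels do not say whether counting used strand. Exons of other genes covered 31.3% of the merged exon length of MRPL51 (NCAPD2, on the other strand), 16.3% of that of MRPS12 (SARS2, on the other strand) and 40.2% of that of MRPS18C (ABRAXAS1, on the other strand). For MRPS18A, not called, the share was 47.0% (RSPH9, on the other strand). On the same strand they covered 21.1% for MRPL33 (BABAM2), 19.5% for MRPL30 and 9.61% for MRPS6 (SLC5A3 and AP000317.2). Of the stretches of 50 bases in MRPS6 transcripts, 29.3% also occur in those of another gene, the most with AP000317.2. For MRPS16 the overlap was 14.9% (DNAJC9 and DNAJC9-AS1), nearly all on the other strand. Reads of such pairs may be split between the partners, and the part of this in the fold changes was not tested. MRPL39 and MRPL17 had no overlapping exon.

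The promoters of the 4 genes with the smallest adjusted p among those that rose and have a window in the RefSeq table (GRCh38.p14), and of both that fell, are shown to set the genes side by side with the binding motifs of their known regulators. Each is the 250 bases before the annotated start, 5′ to 3′ on the gene's own strand, with matches to the motifs of ETS factors (CCGGAAG), NRF1 (GCGCA and GCGC with any base between), YY1 (AAGATGGCG) and the E-box (CACGTG) in capitals, searched on both strands, none of which contains another. Capital runs are matches of letters only. They are chr21:25607482-25607731 (minus strand) for MRPL39, chr2:99180934-99181183 (plus strand) for MRPL30, chr12:6493263-6493512 (minus strand) for MRPL51, chr21:34073328-34073577 (plus strand) for MRPS6, chr19:38930704-38930953 (plus strand, the later of its annotated starts) for MRPS12 and chr2:27771469-27771718 (plus strand) for MRPL33.
MRPL39: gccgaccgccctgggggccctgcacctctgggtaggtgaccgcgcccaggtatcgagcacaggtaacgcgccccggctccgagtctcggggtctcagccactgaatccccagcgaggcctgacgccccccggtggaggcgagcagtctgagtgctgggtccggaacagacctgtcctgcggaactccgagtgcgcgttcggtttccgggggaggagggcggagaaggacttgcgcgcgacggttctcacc
MRPL30: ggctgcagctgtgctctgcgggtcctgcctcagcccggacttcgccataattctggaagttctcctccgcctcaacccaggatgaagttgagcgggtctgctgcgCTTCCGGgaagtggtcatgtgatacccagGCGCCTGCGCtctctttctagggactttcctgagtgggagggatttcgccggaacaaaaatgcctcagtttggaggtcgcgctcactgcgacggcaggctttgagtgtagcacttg
MRPL51: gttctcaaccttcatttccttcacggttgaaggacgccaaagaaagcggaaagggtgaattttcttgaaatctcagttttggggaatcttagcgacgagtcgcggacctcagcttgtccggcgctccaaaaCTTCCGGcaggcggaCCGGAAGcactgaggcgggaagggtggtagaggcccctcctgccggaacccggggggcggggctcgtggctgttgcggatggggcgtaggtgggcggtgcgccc
MRPS6: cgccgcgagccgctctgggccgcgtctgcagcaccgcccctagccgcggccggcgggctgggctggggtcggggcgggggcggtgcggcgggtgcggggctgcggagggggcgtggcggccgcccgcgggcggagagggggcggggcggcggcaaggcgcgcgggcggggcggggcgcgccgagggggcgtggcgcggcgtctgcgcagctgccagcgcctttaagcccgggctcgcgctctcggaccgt
MRPS12: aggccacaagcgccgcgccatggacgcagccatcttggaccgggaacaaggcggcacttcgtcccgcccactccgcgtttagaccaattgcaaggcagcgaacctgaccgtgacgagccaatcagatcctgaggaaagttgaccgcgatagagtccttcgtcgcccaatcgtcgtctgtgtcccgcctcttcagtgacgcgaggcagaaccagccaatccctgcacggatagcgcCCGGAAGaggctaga
MRPL33: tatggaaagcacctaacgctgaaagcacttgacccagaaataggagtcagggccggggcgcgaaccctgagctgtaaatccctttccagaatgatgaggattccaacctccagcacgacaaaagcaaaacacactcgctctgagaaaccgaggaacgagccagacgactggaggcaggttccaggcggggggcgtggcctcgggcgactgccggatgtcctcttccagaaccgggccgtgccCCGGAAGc

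MRPL51 holds 2 ETS matches, 119 and 104 bases before the start counted to the match's first base, and MRPL30 holds an ETS match at 145 and an NRF1 match at 116. In both genes that fell an ETS match lies close to the start, at 15 bases in MRPS12 and 8 in MRPL33. MRPL39 and MRPS6 hold none of the 4 motifs in these letters. Genes with and without a match thus stood among those that rose.

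Across the family the ETS and YY1 letters were more frequent than in windows of tested protein-coding genes. Windows of 300 bases (250 before and 50 after a start) were found for 60 of the 69 genes, 74 windows in all. Windows of the same gene can overlap, so that a match can be counted more than once. MRPL2, MRPL10, MRPL13, MRPL15, MRPL21, MRPL23, MRPL35, MRPS28 and MRPS36 had none. The ETS motif was in 31 of the 74 windows (41.9%), against 16.6% of windows of tested protein-coding genes and 10.3% of all windows. The YY1 motif was in 10 of the 74 windows (13.5%), against 3.31% and 1.75%. The NRF1 motif was in 8 (10.8%), against 9.60% and 5.78%. For the E-box the count was also 8 (10.8%), against 9.17% and 7.26%. CCAAT was in 24 windows (32.4%), against 34.8% and 34.6%, and the GC box GGGCGGGG in 26 (35.1%), against 34.0% and 22.8%.

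**Figure D2:**
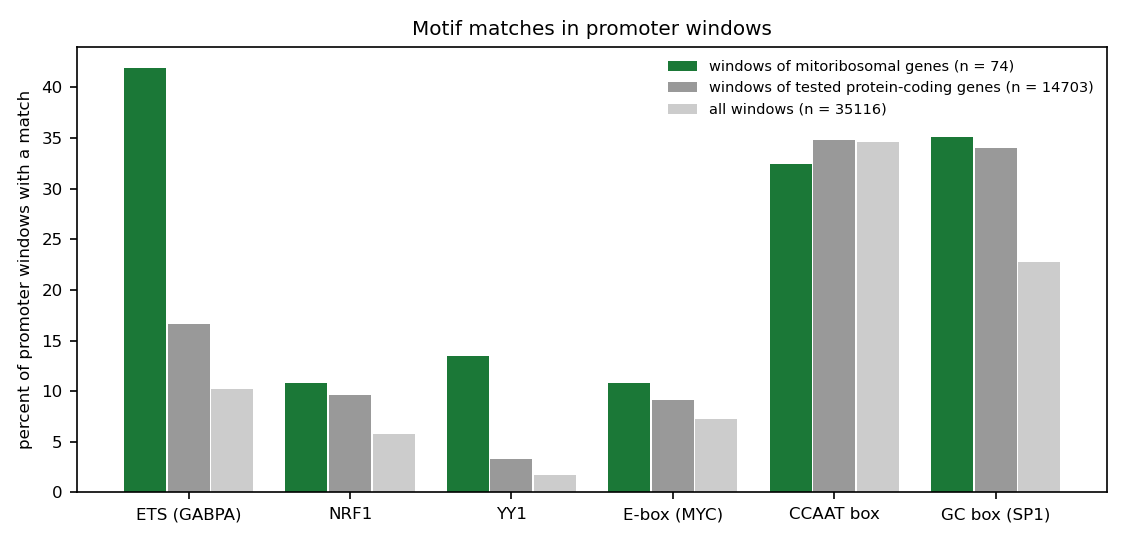
Percent of promoter windows that hold each motif on either strand, for the 74 windows of mitoribosomal protein genes, windows of tested protein-coding genes and all windows of the RefSeq table. The ETS motif stands at 41.9% in mitoribosomal windows, and the YY1 motif at 13.5%.

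The ETS motif was found in called and uncalled genes, and no test was made between them. It was in 7 of 16 windows of genes that rose (43.8%), in 3 of 3 windows of the 2 genes that fell and in 21 of 55 windows of genes not called (38.2%). The windows of MRPS12 begin at bases 38930694 and 38930704 and overlap, so that the same match is counted in both. An E-box, the letters bound by MYC among others, was in 4 of 16 windows of genes that rose and in 4 of 55 of genes not called (7.27%), counts too small to read further. Both subunits held the ETS motif at like shares, 19 of 44 windows (43.2%) in the large and 12 of 30 in the small subunit.

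Among the regulators of nuclear genes for mitochondria, MYC, a growth-promoting transcription factor, was higher, at a log2 fold change of 0.73 (adjusted p = 3.07e-06 at an SE of 0.14) in the authors' deposited table. YY1 was lower, at -0.32 (adjusted p = 0.000997 at an SE of 0.09), and so was HCFC1, a cofactor of GABP and other factors, at -0.45 (adjusted p = 0.0415 at an SE of 0.18), both from the authors' deposited table. GABPA, the DNA-binding subunit of GABP, had a log2 fold change of -0.12 (adjusted p = 0.0684 at an SE of 0.05), and NRF1 one of -0.18 (adjusted p = 0.417 at an SE of 0.15) in the authors' deposited table. The coactivator PPARGC1A had a mean normalized count of 0.0586 and its relative PPARGC1B one of 8.87 in the authors' deposited table. Of the 12 regulators listed, 11 were tested, with 1 higher, 2 lower and 8 not called. The share called, 27.3%, lay near the 29.5% of all tested genes. It lay below the 42.6% of tested genes with a mean of at least 5 CPM, which 10 of the 12 regulators reached.

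By the outermost annotated gene ends, mitoribosomal genes often start near a coding gene on the other strand. Such a gene started within 1000 bases, on either side, of the start of 24 of the 69 genes (34.8%). For tested protein-coding genes the share was 17.5% of 12369. Shared promoters were not tested, as these ends can lie far from the starts in use. The end taken for MRPS22 is base 139005806, while a RefSeq window of that gene begins at 139343744. MRPL46 and MRPS11 are each other's neighbour and count in both directions. Of 22 such pairs with both genes tested, both were called in 3, each time in the same direction, and neither in 13. With 29.5% of all single tested genes called, 3 pairs are too few to read further. Those 3 pairs were MRPS12 with SARS2, the mitochondrial seryl-tRNA synthetase, MRPL51 with NCAPD2, a condensin subunit, and MRPL13 with MTBP. In the authors' deposited table the log2 fold change was -0.44 (SE 0.13) for SARS2, 0.89 (SE 0.15) for NCAPD2 and 1.28 (SE 0.46) for MTBP. For MRPS12 and MRPL51 the exons of the pair overlap, as given above, so that their values are not independent. MRPL32 rose without a call for its neighbour PSMA2, a proteasome subunit, at 0.06 (SE 0.06) on the log2 scale in the authors' deposited table. MRPS34 was not called beside a lower EME2, whose log2 fold change in the authors' deposited table was -0.57 (SE 0.16).

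In the large subunit 10 of 42 tested genes were higher and 1 was lower (26.2% called), and in the small subunit 4 of 25 were higher and 1 was lower (20% called). The median log2 fold change was 0.11 in the large and 0.06 in the small subunit. The quartiles were -0.17 and 0.30 in the large and -0.00 and 0.26 in the small subunit. Genes are not replicates, and no test was made between the subunits.

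**Figure D3:**
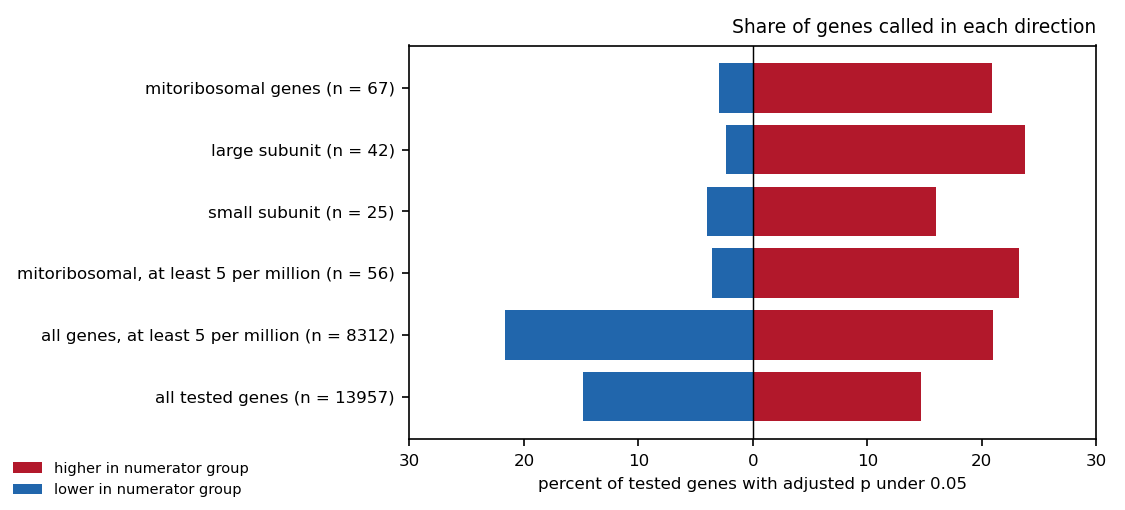
Percent of tested genes with an adjusted p under 0.05, higher in the numerator group to the right of 0 and lower to the left, for mitoribosomal protein genes and all tested genes, with n in the labels. The bar of lower mitoribosomal genes, 2.99%, is short beside the 14.8% of all tested genes.

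Symbols do not always give the subunit. MRPS18A and MRPS30 sit in the large subunit of the solved structure, and MRPS36 is now known as a part of the 2-oxoglutarate dehydrogenase complex. None of them was called, with log2 fold changes of 0.16 (SE 0.11) for MRPS18A, 0.49 (SE 0.28) for MRPS30 and 0.27 (SE 0.28) for MRPS36 in the authors' deposited table. With the genes placed by structure, the median log2 fold change was 0.13 in the large and 0.04 in the small subunit. The 4 small-subunit proteins listed with other symbols were not called either. In the authors' deposited table the log2 fold change was -0.07 (SE 0.06) for DAP3, a GTP-binding protein of the small subunit, -0.11 (SE 0.07) for PTCD3, -0.06 (SE 0.08) for AURKAIP1 and -0.19 (SE 0.27) for CHCHD1.

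Counterparts of bacterial ribosomal proteins made up 43 of the 69 genes. Of the 42 tested, 10 were higher and 2 lower, and their median log2 fold change was 0.03. MRPS36, which is no ribosomal protein by structure, was left out of this split. MRPS18A, a paralog of the listed counterpart MRPS18C, was counted among the genes without one. Of the 24 other tested genes, not listed as having such a counterpart, 4 were higher and none lower, with a median of 0.11. The 4 were MRPL37, MRPL39, MRPL51 and MRPS33. The share called was 28.6% with a counterpart and 16.7% without one. Of all tested genes 29.5% were called, and of those with a mean of at least 5 CPM 42.6%. As 35 of the 43 genes with a counterpart reached that mean, the second share is the nearer background, and theirs lay below it. No test was made between these groups.

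The proteins MRPS18A, MRPS18B and MRPS18C are paralogs that hold different places in the mitoribosome. MRPS18A had a mean normalized count of 537 and MRPS18C one of 539 in the authors' deposited table. Their log2 fold changes had 95% intervals of -0.05 to 0.36 for MRPS18A and 0.08 to 0.51 for MRPS18C, which overlap, so that the call of the second and not of the first shows no difference between them. MRPL10, at the base of the stalk that recruits elongation factors, had a log2 fold change of 0.01 (adjusted p = 0.978 at an SE of 0.14) in the authors' deposited table.

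Levels of different genes were compared per kilobase of merged exons (GENCODE 29), over all libraries behind the mean. The median was 128 mean normalized counts per kilobase over the 69 genes, against 41.5 over tested protein-coding genes. It was 159 in the large and 101 in the small subunit. The quartiles were 42.2 and 322 in the large and 51.3 and 184 in the small subunit, so that the ranges overlapped widely. A typical mitoribosomal gene stood at the 71.5th percentile of tested protein-coding genes, and 53 of the 69 lay above their median. Proteins of 1 complex thus came from mRNAs whose upper quartile was 6.04 times the lower.

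**Figure D4:**
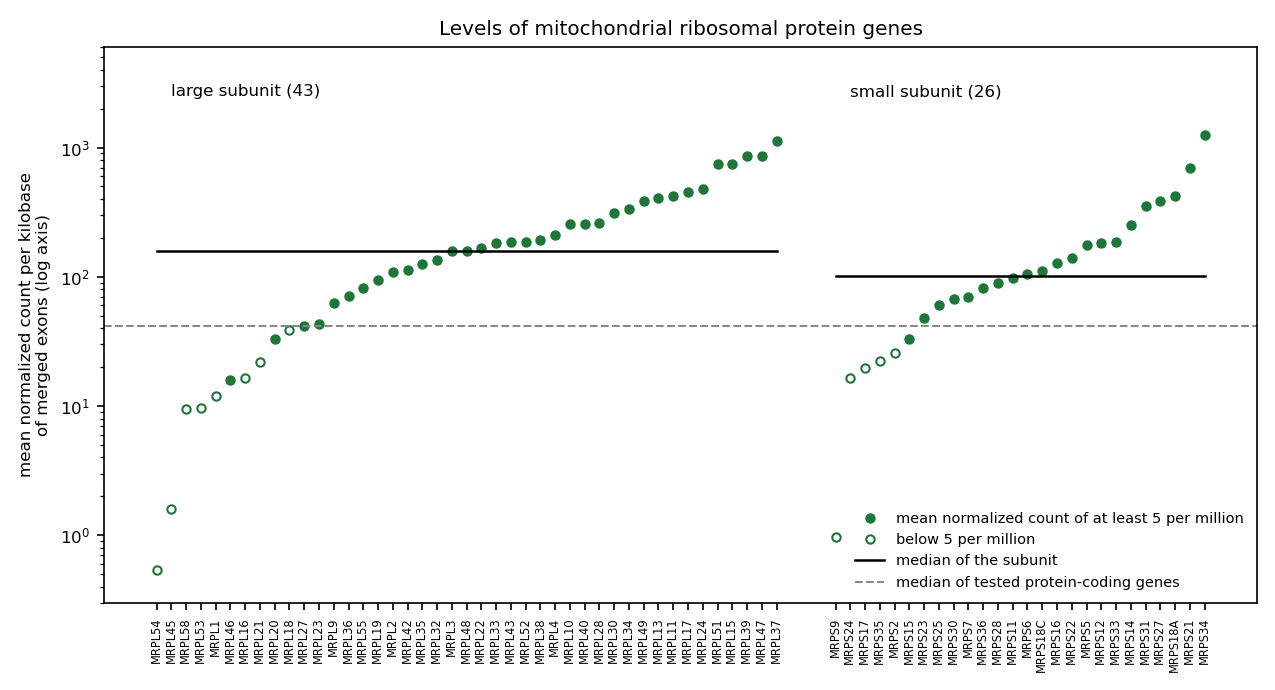
Mean normalized count per kilobase of merged exons (log axis) for the 69 mitoribosomal protein genes, ordered by level within the large subunit (left) and the small subunit (right). Open points mark the 13 genes below a mean of 72.0, lines the subunit medians of 159 and 101, and the dashed line the median of tested protein-coding genes, 41.5.

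The highest levels per kilobase of merged exons were 1117 for MRPL37, 865 for MRPL47 and 861 for MRPL39 in the large subunit. In the small subunit they were 1246 for MRPS34, 694 for MRPS21 and 418 for MRPS18A. MRPS34, found only in mitochondria, had a mean normalized count of 1367 and a log2 fold change of 0.09 (adjusted p = 0.405 at an SE of 0.07) in the authors' deposited table. MRPL47 was at -0.02 (SE 0.09) and MRPS21 at 0.06 (SE 0.07) on the log2 scale in the authors' deposited table. Of these 6 genes of highest level by merged exons, only MRPL37 and MRPL39 were called. By coding length the highest were MRPL42 (3951 per kilobase), MRPL13 (3208) and MRPL51 (2990) in the large subunit. For the small subunit they were MRPS21 (4365), MRPS33 (3054) and MRPS34 (2026). Of the genes highest by coding length, MRPL13, MRPL51 and MRPS33 were called.

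A few mitoribosomal genes were nearly uncounted, although their proteins belong to the same complex. In the large subunit the lowest levels per kilobase were 0.534 for MRPL54, 1.60 for MRPL45, which anchors the ribosome to the inner membrane, and 9.41 for MRPL58, a peptidyl-tRNA hydrolase. In the small subunit they were 0.970 for MRPS9, 16.5 for MRPS24 and 19.6 for MRPS17. MRPL54 and MRPS9, at means of 0.536 and 1.86 normalized counts (the authors' deposited table), had no adjusted p. MRPL45 had a mean normalized count of 2.72 and a log2 fold change of 5.15 (adjusted p = 0.170 at an SE of 2.82) in the authors' deposited table, with a 95% interval of -0.37 to 10.68.

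In all, 13 genes had a mean normalized count below 72.0. They were MRPL1, MRPL16, MRPL18, MRPL21, MRPL45, MRPL53, MRPL54, MRPL58, MRPS2, MRPS9, MRPS17, MRPS24 and MRPS35. Over the 11 of them with an adjusted p, the median standard error on the log2 scale was 0.72, against 0.11 for the 56 others, and of these 11 only MRPL18 was called.

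The share of exons that overlap another gene and the level showed next to no rank correlation. Of the 69 genes, 39 shared some exon length with another gene, and Spearman's rho across the genes between this share and the level per kilobase was 0.02. The share of stretches of 50 bases that also occur in transcripts of another gene exceeded 10% in 24 of the 69 genes, and its rho with the level was -0.13. Genes are not independent replicates, and no p is given. MRPL54 had no overlap and no shared stretch, and MRPS9 had 8.88% and 8.48%. MRPL45 shared 16.4% of its stretches, the most with the pseudogene MRPL45P2, which was not analysed here. The share was 48.2% for MRPL53 (with CCDC142) and 71.6% for MRPS24 (with the read-through gene URGCP-MRPS24), so that their counts may be split.

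Other genes of mitochondrial gene expression, from lists written from general knowledge, went both ways. Of 29 tested assembly factors of the mitoribosome, 2 were higher, 3 were lower and 24 were not called, with a median log2 fold change of -0.10. GTPBP10, a GTPase of large-subunit maturation, was at 0.53 (SE 0.11), the RNA helicase DDX28 at -0.45 (SE 0.16) and the GTPase MTG2 at -0.36 (SE 0.10) on the log2 scale in the authors' deposited table. Of 17 translation factors, 3 were higher and 1 was lower. HEMK1, which methylates a release factor, was at 0.47 (SE 0.11), the initiation factors MTIF3 at 0.36 (SE 0.09) and MTIF2 at 0.21 (SE 0.07), and the elongation factor GFM1 at -0.29 (SE 0.09) on the log2 scale in the authors' deposited table.

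Of 16 tested genes that charge mitochondrial tRNAs, none was higher and 2 were lower, SARS2 as given above and MARS2 at a log2 fold change of -0.28 (SE 0.11) in the authors' deposited table. Of 18 genes for the transcription, processing and upkeep of mitochondrial DNA and RNA, none was higher and 2 were lower. These were PDE12, an RNase that trims poly(A) tails, at -0.37 (SE 0.11) and HSD17B10, a subunit of mitochondrial RNase P, at -0.28 (SE 0.09) on the log2 scale in the authors' deposited table. Genes of import and protein quality control had 4 higher and 3 lower of 24, with TIMM17A at -1.28 (SE 0.50), TIMM44 at 0.93 (SE 0.32) and the protease LONP1 at 0.51 (SE 0.11) on the log2 scale in the authors' deposited table. The share called was 17.2% for assembly factors, 23.5% for translation factors and 12.5% for tRNA charging. It was 11.1% for the DNA and RNA list and 29.2% for import and quality control. Of all tested genes 29.5% were called, and of those with a mean of at least 5 CPM 42.6%. Most genes of each list reached that mean, so the second share is the nearer background. All these list shares lay below it, on small counts.

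**Figure D5:**
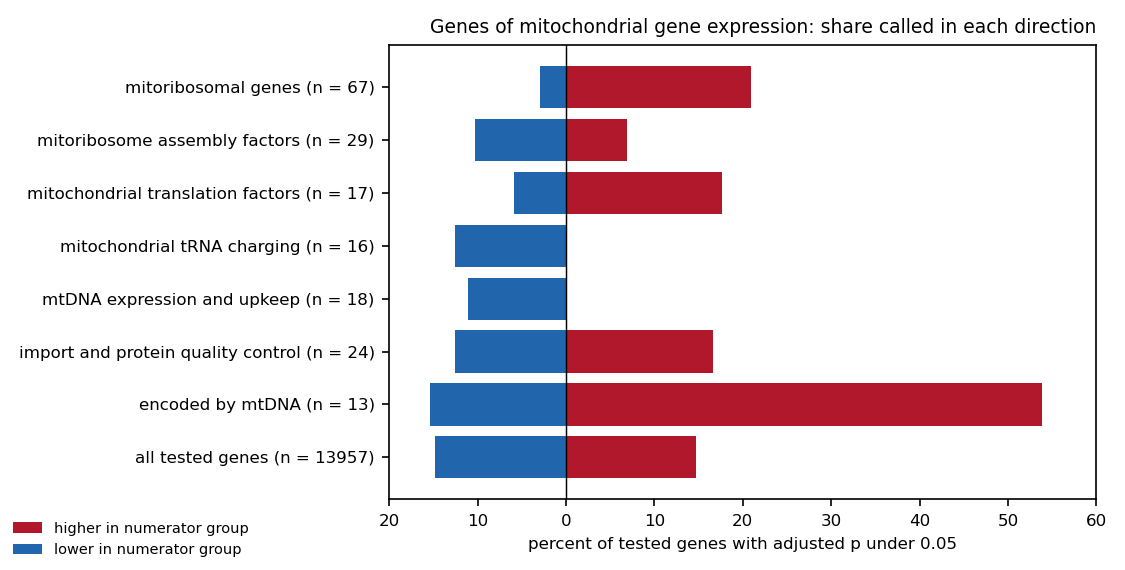
Percent of tested genes with an adjusted p under 0.05, higher in the numerator group to the right of 0 and lower to the left, for mitoribosomal protein genes and other lists of mitochondrial gene expression, with n in the labels. Of the lists drawn, that of the 13 genes encoded by mitochondrial DNA has the highest share called, 69.2%.

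The mRNAs that the mitoribosome translates were measured precisely and changed in both directions. Of 13 protein-coding genes of mitochondrial DNA, 7 were higher, 2 were lower and 4 were not called, with a median log2 fold change of 0.13. The share called was 69.2%, against 42.6% of tested genes with a mean of at least 5 CPM. MT-ND4 was at 0.35 (SE 0.05), MT-ND3 at 0.35 (SE 0.04) and MT-CYB at -0.28 (SE 0.03) on the log2 scale in the authors' deposited table. Their means ran from 17472 to 408697 normalized counts in the authors' deposited table, so that small changes passed the threshold.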

How the data were processed

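RNA of wild-type and alt-LAMA3 knockout HEK293T cells was sequenced after library preparation with a SMARTer kit, per the labels' protocols. The submitters' processing notes name STAR, Salmon and hg38. The program behind the table and the direction of its contrast are unknown (not given in the sources used here).

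The authors' deposited mean normalized count (a signal averaged over all libraries), log2 fold change with its standard error on the log2 scale, Wald statistic (a score), p-value and adjusted p-value were used as they stand. Column names are those of a DESeq2 result, per the file headers. Recomputed Benjamini-Hochberg values differed from the deposited adjusted p by at most 3.66e-07. The lowest mean with one was 2.2198. The depth of each library is not known, and values per sample were not analysed here. The planned count test was therefore replaced by the deposited comparison. 0 other columns of values per sample were set aside.

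IDs were matched to names without version (33483 of 33644) and to GENCODE 29 on GRCh38 (33582, with the same version for 68 of the 69 genes described). Lengths are merged exons. The 95% intervals are the fold change with its normal limits. Promoter windows are from RefSeq. In 66 of 74 windows the first 20 transcribed bases were found in a GENCODE transcript of the gene, and in 0 their reverse complement was. The members and lists were chosen with earlier results of these data known. The genes named followed a rule: the 12 largest changes called in each direction, the 3 highest and lowest levels of each subunit, genes below 72.0 or without an adjusted p, the paralogs and genes placed by structure, the 3 genes on each side of the threshold, and up to 3 called genes per other list. MRPS33 and, as neighbours, SARS2, NCAPD2, MTBP, PSMA2 and EME2, and the regulators and MTIF2, were named after their values were seen. Alternatives changed the genes adjusted over, the threshold, the null, the scaling, the subunits and the length. Adjustment and the fold test were tested on simulated data. Python 3.11.15, numpy 2.4.6, pandas 2.3.3, scipy 1.17.1 and matplotlib 3.10.9 were used.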

Additional observations from a re-analysis of the deposited data

How the results depend on the processing

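The counts of 14 higher and 2 lower genes were the same with no filter on low values, with genes with a mean of at least 72.0 only, with protein-coding genes only, and with fold changes centred on the median of tested genes (0.00) or scaled by summed levels (a shift of 0.01). The called genes kept their call under each of these 5 where they were tested. With the minimum of 72.0, MRPL18 was not tested and MRPL2 gained a call (adjusted p = 0.0492, Benjamini-Hochberg over the deposited p-values). At an adjusted p of 0.01, 10 were higher and 1 lower, and in the large subunit 7 were higher and 0 lower. Against a 1.5-fold change 0 were higher and 0 lower in either subunit. With coding length in place of merged exons the median level was 802 per kilobase over all, 840 in the large and 658 in the small subunit, so that the absolute levels rest on the length used while the large subunit stayed above the small. The order of genes by level also rested on the length used. Placing proteins by structure, with or without those of other symbols, kept the counts and gave small-subunit medians of 0.04 and 0.02. No paired analysis was possible because the table holds no values per sample. For the same reason DESeq2, other size factors and leaving out replicates were not run. Depth limits the 13 genes below 72.0.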

Other observations

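Pseudogenes of the family were almost uncounted. Of 78 in the table, 57 were at a mean of 0, 4 had an adjusted p and 1 exceeded a mean normalized count of 72.0. That one, MRPS31P5, had a mean normalized count of 313 and a log2 fold change of 0.43 (adjusted p = 0.0251 at an SE of 0.16) in the authors' deposited table. Its parent MRPS31 had a mean normalized count of 755 and a log2 fold change of 0.09 (adjusted p = 0.456 at an SE of 0.08) in the authors' deposited table. The summed mean of all 78 pseudogenes was 369, against 40025 for the 69 protein-coding genes. The 69 genes lie on 20 chromosomes, with 8 on chromosome 1 and 7 each on chromosomes 2, 11 and 17.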
